A study of Mus musculus with 6 samples.

Results

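A set of 62 genes had lower signals in activin-treated than in vehicle-treated LβT2 cells after 2 h and after 6 h, with no such difference after 1 h. The set was drawn from 11500 genes measured on an Affymetrix mouse genome array. A gene entered it when its signal was at least 1.4-fold lower with activin at both 2 h and 6 h and less than 1.2-fold lower, or higher, at 1 h. Each gene was read from its brightest probe set, a group of short probes against 1 transcript, and needed a mean signal over the 6 arrays at or above a fixed brightness limit, close to the median of all probe sets (159.4 array units). Genes whose symbols begin with Slc, Zfp, Kcn or Kif, 4 of those that met the limits, were set aside. The members were thus selected on their signals at all 3 times, and the differences between activin and vehicle given here describe that selection and are no tests of it.

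LβT2 is an established line of mouse pituitary cells with gonadotrope features. The cells had spent 16 h in medium free of serum and phenol red before they received either recombinant human activin A at 30 ng/ml or vehicle, the buffer in which the protein was formulated. RNA was taken at 1, 2 or 6 h, and each treatment and time is represented by 1 array: activin 1 h, activin 2 h and activin 6 h, each with a vehicle array of the same time. No array has a replicate, so no value has an error, no difference has a replicate check and no test is reported. In RNA from whole cultures, fewer cells that make a transcript and less of it in each cell cannot be told apart.

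Activin is a dimeric protein of the TGF-beta family. It binds paired serine-threonine kinase receptors that phosphorylate Smad2 and Smad3, which enter the nucleus with Smad4 and can activate or repress transcription, depending on the partners they meet on DNA. In gonadotropes activin stimulates the gene of the beta subunit of follicle-stimulating hormone. Transcripts can be lowered directly or through proteins made after the ligand arrives, and the half-life of a transcript sets how soon a loss can be seen. Array signals do not separate these routes.

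The short sequence CAGACA, a Smad box to which the DNA-binding domain of Smad3 can bind, was looked for on both strands in the members' promoters, here 250 bases before to 50 after the start of transcription listed by RefSeq (build GRCm38.p6). The RefSeq table held a promoter for 44 of the 62 members, 9 of them with several start sites, of which the first listed was used. A Smad box was present in 8 of the 44 (18.2%) and in 15.5% of the promoters of all 9330 measured genes in the table. The bases before the start site are printed for 2 members that hold a box, Itpkb and Plin2, and for Id4, the member best known from this pathway, which has none in this window. The box is in capitals, and the last base of each line is the one before the listed start.
Itpkb, chr1:180330226-180330475, plus strand: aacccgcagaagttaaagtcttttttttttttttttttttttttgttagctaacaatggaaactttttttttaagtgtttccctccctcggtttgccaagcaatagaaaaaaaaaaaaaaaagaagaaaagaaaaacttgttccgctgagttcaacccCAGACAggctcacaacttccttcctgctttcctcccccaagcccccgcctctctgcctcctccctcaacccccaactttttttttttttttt
Plin2, chr4:86670060-86670309, minus strand: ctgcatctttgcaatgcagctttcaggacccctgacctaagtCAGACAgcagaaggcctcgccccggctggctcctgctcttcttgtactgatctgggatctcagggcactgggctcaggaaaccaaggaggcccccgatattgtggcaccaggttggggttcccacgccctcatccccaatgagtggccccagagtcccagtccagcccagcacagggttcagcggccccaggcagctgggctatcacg
Id4, chr13:48260866-48261115, plus strand: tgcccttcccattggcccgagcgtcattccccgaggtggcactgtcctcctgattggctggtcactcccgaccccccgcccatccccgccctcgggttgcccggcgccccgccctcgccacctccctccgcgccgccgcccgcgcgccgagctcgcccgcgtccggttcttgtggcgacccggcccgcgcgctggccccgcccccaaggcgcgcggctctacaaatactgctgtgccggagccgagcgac

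The box of Itpkb begins 92 bases before the listed start and that of Plin2 208 bases before it. In the same annotation the span of each of these 2 genes begins further upstream, at 180330390 for Itpkb and 86670217 for Plin2. Part of both printed stretches thus lies inside the annotated gene, which is not so for Id4. Bmf, Stox2 and Gm4814 each held 2 boxes before the listed start and Plekhh3 held 1. The listed starts of Bmf, Stox2 and Plekhh3 also lie inside wider annotated spans. Other short motifs were about as frequent in the members as in all measured genes, counted on both strands. The Sp1/Klf sequence GGGCGG was in 59.1% of the members' promoters and 64.7% of all, CCAAT in 40.9% and 38.9%, and TGACG, part of the cyclic AMP response element, in 34.1% and 32.4%. This last sequence can overlap CACGTG, an E-box, which was in 11.4% and 10.1%. TTCCCGC, an E2F sequence, was in 11.4% and 8.79%, and TTGGTGA, the core of the TGF-beta inhibitory element, in 2.27% and 3.14%. The median GC content was 62.8% in the members' promoters and 61.3% in all. A match to such short letters is a description of the sequence and does not show that a protein binds there.

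At each single time a difference of 1.4-fold was common across the array. Of the 11500 genes, 4.65% were at least 1.4-fold lower with activin at 2 h, 5.41% at 6 h and 5.24% at 1 h. The shares at least 1.4-fold higher were 3.8% at 1 h, 3.77% at 2 h and 5.76% at 6 h. Being lower by that much at both 2 h and 6 h was met by 0.904% of genes, and the whole rule by 0.539%. The same limits turned round, for genes higher with activin only at 2 h and 6 h, were met by 92 genes (0.8%), so the lower set was the smaller of the pair.

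A fold given without a direction is vehicle over activin, so that a value above 1 means lower with activin. Among the members the median fold was 1.65 at 2 h and 1.6 at 6 h, and the largest were 4.24 and 4.89. The median log2 ratio of activin over vehicle was −0.01 at 1 h, −0.72 at 2 h and −0.68 at 6 h, where the median of all genes was −0.041, −0.026 and −0.025. At 1 h, 30 members were higher and 32 lower with activin, while 42.4% of all genes were higher. The rule bounds the 1 h ratio on the lower side only, which itself favours a larger share of higher genes among the members. In 50 members the 1 h arrays lay within 1.2-fold of each other, and 12 were over 1.2-fold higher with activin, 5 of them by at least 1.4-fold. At 2 h, 9 members were at least 2-fold lower (0.609% of all genes were), and at 6 h, 12 were (0.67% of all genes). Dusp16 and Lrrn3 were at least 2-fold lower at both. The larger of the later folds was at 6 h in 33 members and at 2 h in 29, so the set has no common course after 2 h.

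**Figure D1:**
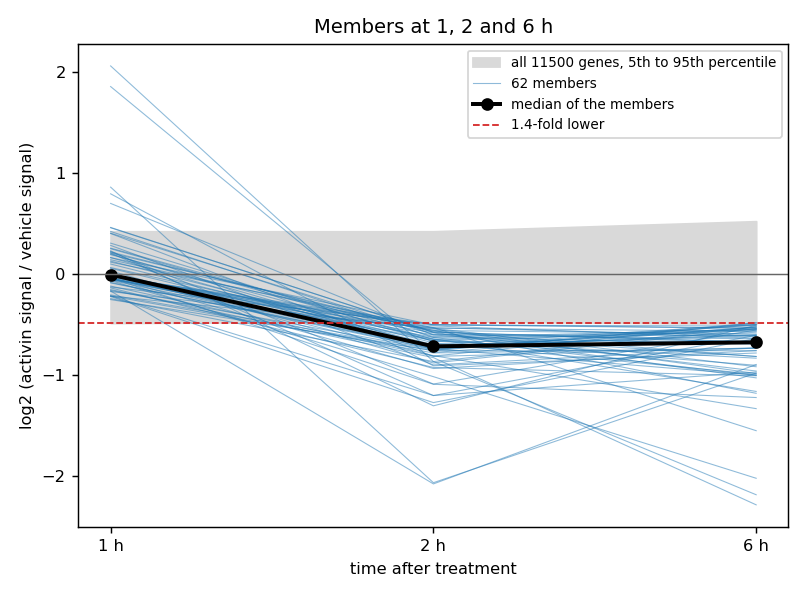
Log2 ratio of activin over vehicle signal (vertical axis) at 1, 2 and 6 h (horizontal axis, evenly spaced) for each of the 62 members (thin lines), their median (black) and the 5th to 95th percentile of all 11500 genes (grey). The median goes through −0.01, −0.72 and −0.68; the dashed line marks the 1.4-fold limit of the rule at 2 h and 6 h, and 2 lines start near 2, far above the rest.

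The arrays of 1 treatment were also set against each other over time. Both later activin signals were below the activin 1 h signal in 60 of the 62 members, against 31.3% of all genes, and the exceptions were the noncoding Lockd and Ppp4r1l-ps. The vehicle signals were above the vehicle 1 h signal at both later times in 34 members, against 32.8% of all genes. Relative to 1 h of the same treatment, the median log2 ratio of the members was −0.59 at 2 h and −0.64 at 6 h with activin, and 0.15 and 0.12 with vehicle. For all genes these medians were 0.027 and 0.013 with activin and 0.005 and −0.011 with vehicle. In 55 members both later activin signals lay below both 1 h arrays (19.6% of all genes had this order), and in 27 both later vehicle signals lay above both 1 h arrays (21.3% of all genes). Across all genes the 5th to 95th percentile of the log2 ratio of 2 h to 1 h was −0.52 to 0.52 with activin and −0.37 to 0.38 with vehicle. Both later activin signals were below all 3 vehicle signals in 53 members. Of all genes 16.5% had this order, and among the members the rule, by setting the later ratios and bounding the 1 h ratio, favours each of these orders.

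**Figure D2:**
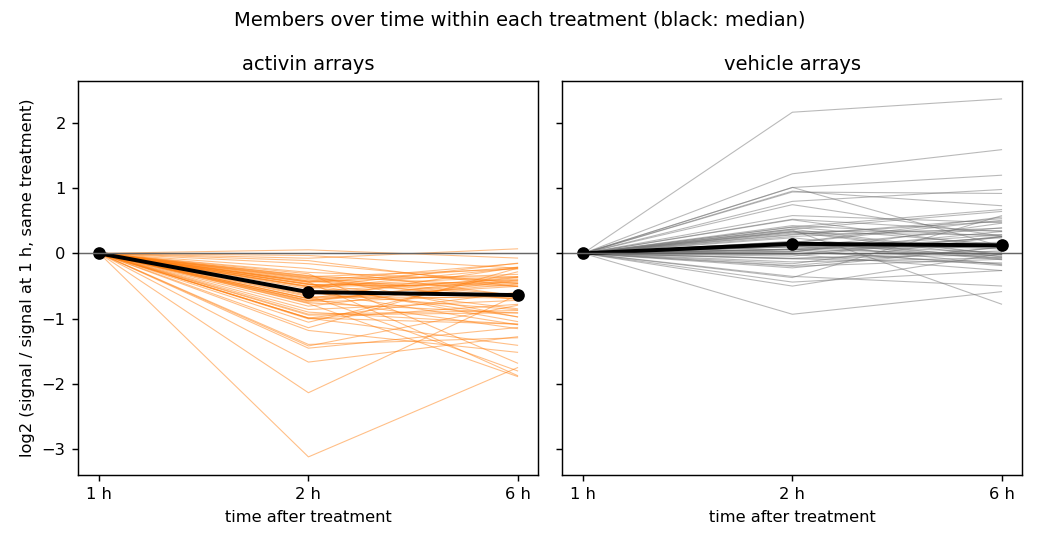
Log2 ratio of each member's signal to its own 1 h signal on the activin arrays (left) and the vehicle arrays (right), with time on the horizontal axis and the median in black. The activin medians are −0.59 and −0.64 and the vehicle medians 0.15 and 0.12 at 2 h and 6 h.

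Many members were read near the brightness limit. Their mean signals ran from 158.6 to 1464.8 with a median of 262.0, where the median of all measured genes was 808.9, and 30 members had a mean under 250. In 35 members all 6 signals reached the brightness limit, and in these the largest folds were 2.42 at 2 h and 2.53 at 6 h. In the other 27 at least 1 signal was under it, and the largest folds were 4.24 and 4.89. The median folds of the first 35 were 1.03 at 1 h, 1.63 at 2 h and 1.53 at 6 h, and those of the 27 were 0.87, 1.72 and 1.7. On the activin arrays 1, 18 and 23 members were under the limit at 1, 2 and 6 h, and on the vehicle arrays 5, 1 and 1. Of all genes, 2.1% to 3.5% were under the limit on any 1 array. The split is not independent of the folds, since a lower later activin signal itself moves a member into the 27. Detection calls were not used here.

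**Figure D3:**
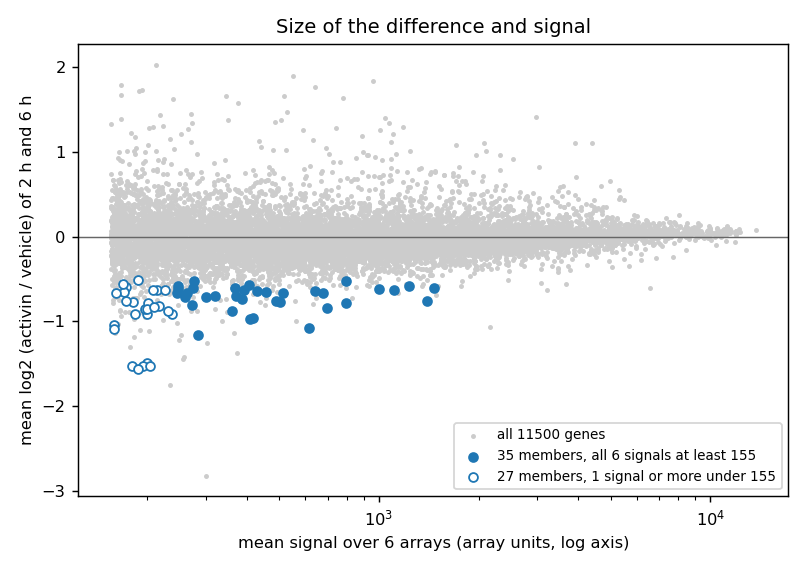
Mean log2 ratio of activin over vehicle at 2 h and 6 h (vertical axis) against mean signal over the 6 arrays (horizontal axis, log scale in array units) for all 11500 genes (grey), the 35 members with every signal at or above the brightness limit (filled) and the 27 with at least 1 signal below (open). The lowest values among the members belong to dim genes, with mean signals near 200.

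All 6 arrays had a trimmed mean signal of 500 and medians between 151 and 166.4. The gonadotrope genes Cga, Lhb, Gnrhr and Nr5a1 passed the brightness limit, while Fshb, the growth hormone and prolactin genes Gh and Prl, the progenitor gene Sox2 and the fibroblast gene Col1a1 did not. Tshb, Pomc, the endothelial gene Pecam1 and the macrophage gene Adgre1 also passed. Pecam1 read 700.7, 952.3 and 1081.3 with activin at 1, 2 and 6 h, against 527.3, 576 and 530.5 with vehicle. At 6 h Pomc read 315 with activin against 159.3 with vehicle. Adgre1 was 1.32, 1.38 and 1.3-fold lower with activin at the 3 times, and the part of these differences in the members' values was not tested. All 3 controls for 18S ribosomal RNA were higher on the activin 1 h array than on its vehicle array, at 12201.8 against 610.1 with vehicle for the 5′ end, 1388.8 against 356.8 for the middle and 894.3 against 297.6 for the 3′ end. The highest value on any other array was 1171.1. Every 1 h value of the members uses that activin array, and the part of these differences in them was not tested.

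Genes of transcription made up 10 members, with median folds of 1.7 at 2 h and 1.64 at 6 h. Roles were assigned after the values were seen. Id4 encodes a helix-loop-helix inhibitor that binds partner proteins and keeps them off DNA, and Id genes are classic targets of BMP signalling through Smad1 and Smad5. It read 460.3, 354.4 and 359.2 with activin at 1, 2 and 6 h, against 550, 601.5 and 609.8 with vehicle. Both later activin signals were below every vehicle signal, and the 1 h activin signal was below its vehicle too, by 1.19-fold, just inside the limit of the rule. At 2 h and 6 h the fold was 1.7 at both times. Its relatives had another pattern: Id1 was 1.25, 1.17 and 1.69-fold higher with activin at 1, 2 and 6 h, and Id2 1.85, 1.29 and 1.65-fold higher. Id3 was 1.8 and 1.19-fold higher at 1 h and 2 h and 1.42-fold lower at 6 h, on signals between 139.5 and 276.2.

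A second, dimmer probe set of Id4 read 345.6, 201.1 and 253.1 with activin against 442.4, 480.6 and 441.3 with vehicle, folds of 1.28, 2.39 and 1.74, so at 1 h it lay outside the limit. A further one was 1.44-fold lower at 1 h and 6 h and 1.1-fold higher at 2 h. Of the 62 members, Id4 alone appears in the authors' deposited table of genes at least 1.2-fold apart at all 3 times. The rule bars a member's brightest probe set from being that much lower at 1 h, so nothing is read from the absence of the others. Id4 entered through its second probe set, and the authors' deposited table gives −1.31, −1.69 and −1.72 for it as signed folds at 1, 2 and 6 h, a fall being negative, matched by sequence accession. The 2 h fold in the authors' deposited table is smaller than the 2.39 obtained from the signals of that probe set. Id4 was thus lower at 1 h as well in 3 of 3 probe sets, by 1.19 to 1.44-fold.

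Bcl6, a zinc finger repressor best known from germinal centre B cells, read 386.5, 250 and 300.3 with activin, against 426.1, 476.2 and 605.5 with vehicle. The vehicle signal was highest at 6 h and the activin signal lowest at 2 h, which gave 1.9-fold at 2 h and 2.02-fold at 6 h. A second, dimmer Bcl6 probe set had folds of 1.2, 1.16 and 0.835 and did not have the pattern. Lmx1b, a LIM homeodomain factor of midbrain, limb and kidney development, read 410.3, 248.1 and 296.2 with activin, against 479.9, 601.5 and 462.1 with vehicle. Its fold of 2.42 at 2 h was the largest among the 35 brighter members, and it was 1.56 at 6 h. Tox3, a high mobility group box protein, read 442.6, 229.8 and 235.8 with activin, against 396.1, 385 and 473.4 with vehicle. The later activin signals lay well below the other 4, 1.68-fold below vehicle at 2 h and 2.01-fold at 6 h. The other Tox genes stayed closer to vehicle, with folds of vehicle over activin between 0.89 and 1.16 at 2 h and 6 h for Tox, Tox2 and Tox4.

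St18, a zinc finger factor of the Myt family that acts in neuronal and endocrine cells, was far above the brightness limit on every array. It read 1668.6, 1034 and 1175.6 with activin, against 1561.8, 1684.4 and 1664.3 with vehicle. The 3 vehicle arrays and the activin 1 h array lay together, and the later activin arrays were 1.63 and 1.42-fold lower. Its dimmer probe set was 1.16 and 1.2-fold lower at these times but 2.32-fold higher with activin at 1 h. Myt1 and Myt1l had folds of 0.98 and 0.97 at 2 h and 1.35 and 1.03 at 6 h. Maf, a basic leucine zipper factor, read 281.9, 161 and 211.6 with activin, against 228.6, 256.3 and 335.9 with vehicle, which made it 1.59-fold lower at both later times and 1.23-fold higher at 1 h.

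The rest of the transcription genes were dimmer or less different. Dlx4, a homeobox gene, read 232.5, 53 and 149.6 with activin, against 261.9, 224.6 and 279.2 with vehicle. Its 2 h activin signal of 53 stood alone and gave the largest fold of the set at that time, 4.24, while a second probe set was 1.27-fold lower at 2 h and 1.14-fold higher with activin at 6 h. Lmo3, a LIM-only cofactor, read 201.8, 129 and 58 with activin, against 225.1, 229.6 and 283.8 with vehicle, and its 4.89-fold at 6 h was the largest of the set. In both genes the largest fold rests on 1 activin signal far under the brightness limit. Stox2, a storkhead box gene related to winged helix factors, was 1.7-fold lower at 2 h and 1.4-fold at 6 h. Its 6 h activin signal of 204.9 was above its 2 h vehicle signal of 203.9. Polr1a encodes the largest subunit of RNA polymerase I, which transcribes the ribosomal RNA genes, and read 406.3, 317.2 and 344.1 with activin, against 375.5, 459.7 and 527.3 with vehicle. It was 1.45-fold lower at 2 h and 1.53-fold at 6 h, and higher by 1.08-fold at 1 h. A second Polr1a probe set read 326, 226.9 and 278.6 with activin, against 251.4, 284.1 and 305.2 with vehicle, 1.25 and 1.1-fold lower at 2 h and 6 h and 1.3-fold higher at 1 h. Other subunits of this enzyme, Polr1b, Polr1c, Polr1d and Polr1e, had folds between 1.04 and 1.32 at 2 h and between 0.75 and 1.24 at 6 h, so none reached the limit of 1.4.

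**Figure D4:**
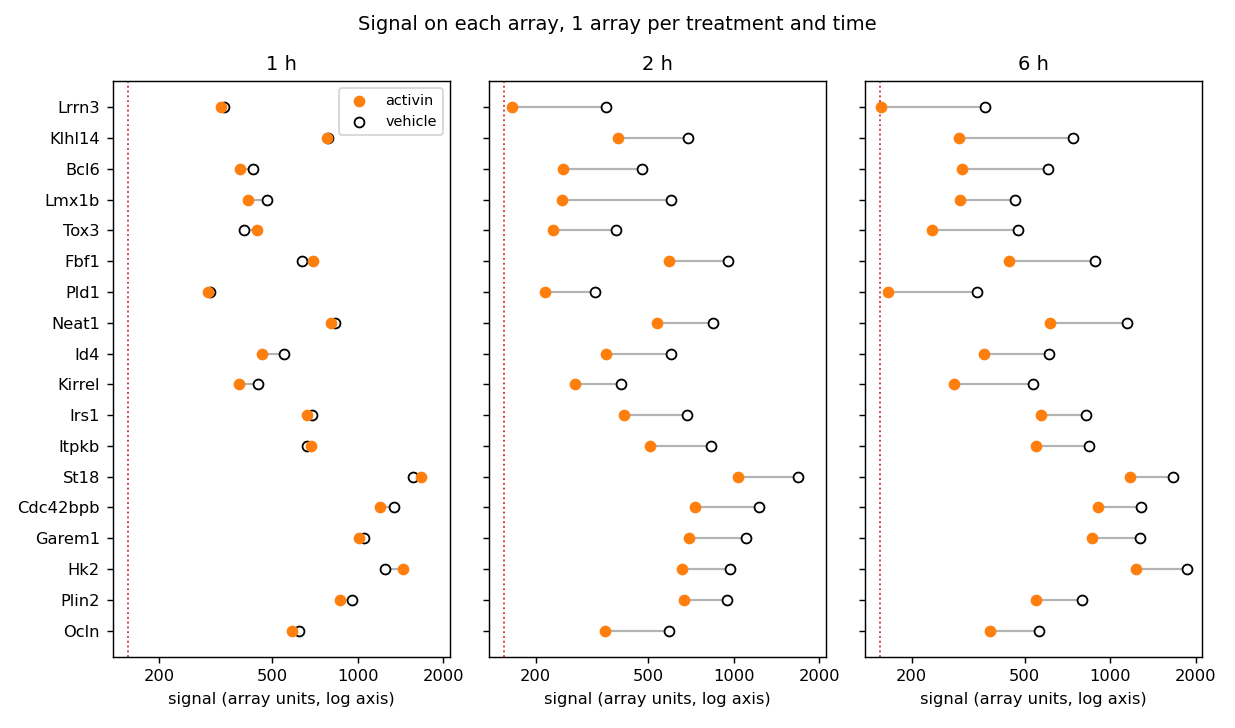
Signals (horizontal axis, log scale in array units) of 18 named members (rows) on the activin (filled) and vehicle (open) arrays at 1, 2 and 6 h, 1 array each; the dotted line marks the brightness limit. The points of a row lie close together at 1 h and are separated at 2 h and 6 h, with activin always to the left.

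Genes of intracellular signalling made up 8 members, all 8 with both later activin signals below every vehicle signal. The rule favours this order, which 53 of the 62 members (85.5%) had. Irs1 encodes an adaptor that couples the insulin and IGF1 receptors to PI3 kinase and Ras. It read 661.8, 409.3 and 570.9 with activin, against 692.2, 685.8 and 825.1 with vehicle. The 1 h arrays were close, the 2 h activin signal was the lowest of the 6, and the folds were 1.68 at 2 h and 1.45 at 6 h. Irs4, a relative, was within 1.1-fold at all 3 times, and the receptor genes Insr and Igf1r had folds between 0.9 and 1.14 at 2 h and 6 h. Garem1, an adaptor that links growth factor receptors to ERK signalling, read 1009.3, 694.2 and 864.6 with activin, against 1051, 1099.1 and 1279.4 with vehicle, folds of 1.58 at 2 h and 1.48 at 6 h. Its relative Garem2 was 1.83-fold lower at 2 h and 1.33-fold at 6 h, with a 2 h activin signal of 137.5.

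Itpkb, which phosphorylates inositol trisphosphate and so ends its action on calcium stores, read 685.3, 507 and 548.6 with activin, against 660.6, 831.4 and 841.2 with vehicle. Here the later vehicle signals were above both 1 h arrays and the later activin signals below them, with folds of 1.64 and 1.53. Itpka and Itpkc had 0.98 and 0.96 at 2 h and 1.21 and 1.19 at 6 h. Cdc42bpb, or MRCK beta, a kinase that acts downstream of Cdc42 on myosin and actin, read 1196.7, 727.9 and 903.4 with activin, against 1342.8, 1226.7 and 1280.6 with vehicle. It was 1.69-fold lower at 2 h and 1.42-fold at 6 h, while Cdc42bpa had 0.98 and 1.03 and Cdc42bpg 1.1 and 1.21. Pld1, phospholipase D1, which makes phosphatidic acid and takes part in vesicle traffic, read 297.5, 215.8 and 165.3 with activin, against 300.6, 324.1 and 338.1 with vehicle. The treatments lay further apart at 6 h, with folds of 1.5 and 2.05. Pld2 had 1.05 and 0.86.

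A pair of MAP kinase regulators was dim on the later activin arrays. Dusp16, a phosphatase that acts on JNK and p38, read 204.8, 151.2 and 56 with activin, against 214.8, 306.7 and 228.3 with vehicle, or 2.03-fold lower at 2 h and 4.08-fold at 6 h. Its relative Dusp1 was 1.41, 1.22 and 1.71-fold lower at 1, 2 and 6 h. Dusp2, Dusp7, Dusp8 and Dusp10 had folds between 0.71 and 1.01 at 2 h and between 0.86 and 1.39 at 6 h. Map2k6, a kinase that activates p38, read 251, 91.8 and 114.3 with activin, against 254.7, 133.5 and 169.7 with vehicle. For Map2k6 the vehicle signals were lower at 2 h and 6 h as well, and the folds were 1.45 and 1.48. Among the other measured MAP2K genes, Map2k1 to Map2k5, the folds at 2 h and 6 h lay between 0.74 and 1.26. Pip5kl1, related to the kinases that make phosphatidylinositol bisphosphate, was 1.54-fold lower at 2 h and 1.62-fold at 6 h, with activin signals of 136.6 and 99.1 at these times.

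Genes of metabolism made up 6 members, with median folds of 1.51 at 2 h and 1.49 at 6 h. Hk2 encodes hexokinase 2, which phosphorylates glucose at the entry of glycolysis. It read 1441.4, 654.8 and 1232.4 with activin, against 1250.6, 967.6 and 1864.9 with vehicle. In both treatments the signal was lowest at 2 h, and the 6 h activin signal was above the 2 h vehicle signal. Hk2 was 1.48-fold lower at 2 h and 1.51-fold at 6 h and 1.15-fold higher at 1 h, while Hk1 had folds of 0.92 and 0.85 at the later times. Gfpt2, an enzyme that starts the hexosamine pathway from fructose 6-phosphate, read 450.3, 323.3 and 318.3 with activin, against 479.9, 535.6 and 465.3 with vehicle. The later activin signals were the 2 lowest, 1.66-fold and 1.46-fold below vehicle. Gfpt1, which catalyses the same step, had folds of 1.07 and 1.16.

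Plin2, a coat protein of lipid droplets, read 869.8, 665.4 and 546.9 with activin, against 953.5, 943.1 and 794.7 with vehicle. It was 1.42-fold lower at 2 h, the smallest 2 h fold of the set, and 1.45-fold at 6 h. Its relative Plin5 was 1.87-fold lower at 2 h and 1.24-fold at 6 h, with a 2 h activin signal of 130.1 under the brightness limit. Gpat3, which adds the first acyl chain to glycerol 3-phosphate in the synthesis of triglyceride, read 187.4, 139.7 and 115.7 with activin, against 179.7, 218.5 and 259.8 with vehicle. The vehicle signal was higher and the activin signal lower at each later time, with folds of 1.56 and 2.25. Gpam and Gpat4, which catalyse the same reaction, had folds between 0.89 and 1.14. Carns1, which makes carnosine, was 1.45-fold lower at 2 h and 2.94-fold at 6 h, and the cytochrome P450 gene Cyp2c68 was 1.55 and 1.46-fold lower. Carns1 read 56.8 on the activin 6 h array.

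Genes of the cell surface, adhesion and membrane traffic made up 10 members, with median folds of 1.63 at 2 h and 1.72 at 6 h. Lrrn3, a neuronal transmembrane protein with leucine-rich repeats, read 329, 165.8 and 155.3 with activin, against 338.8, 354.4 and 363.6 with vehicle. The vehicle arrays and the activin 1 h array lay close together, and both later activin signals were far below them. Its folds of 2.14 at 2 h and 2.34 at 6 h gave the largest mean among the 35 brighter members. The activin 6 h signal of 155.3 was only just above the brightness limit. Its measured relatives Lrrn1 and Lrrn2 both had a fold of 0.8 at 2 h. At 6 h Lrrn2 had 0.98, and Lrrn1 read 293 with activin against 35.9 with vehicle. Ocln, the tight junction protein occludin, read 587.2, 350.4 and 376.9 with activin, against 623.6, 588.3 and 563.5 with vehicle. Folds were 1.68 and 1.5 at these times, and 1.33 and 1.56 in the other Ocln probe set. Among other measured genes of tight junctions, Tjp1, Tjp3, Cldn3, Marveld2 and F11r had folds between 0.88 and 1.13 at 2 h and 6 h, and Cldn7, with signals on both sides of the brightness limit, had 1.48 at 2 h and 0.99 at 6 h.

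Kirrel, an immunoglobulin-type adhesion protein of the kidney slit diaphragm, read 382.4, 274.9 and 281.1 with activin, against 446.2, 399.8 and 532.7 with vehicle, folds of 1.45 at 2 h and 1.9 at 6 h. Frzb, a secreted antagonist of Wnt ligands, read 245.4, 155.1 and 152.9 with activin, against 202.1, 290.2 and 254.7 with vehicle, folds of 1.87 and 1.67. Its 1 h signal was 1.21-fold higher with activin. The related Sfrp1, Sfrp4 and Sfrp5 had folds of 1.06, 1.11 and 0.97 at 2 h and 1.45, 0.86 and 1.38 at 6 h. Trpc1, a subunit of calcium-permeable channels, read 324.2, 102.3 and 133.9 with activin, against 278.6, 218.3 and 197.1 with vehicle, folds of 2.13 and 1.47. For Trpc1 the vehicle signals were also lower at 2 h and 6 h than at 1 h. Trpc2 was 1.53 and 1.46-fold lower at 2 h and 6 h and 1.25-fold at 1 h, so it narrowly missed the rule, and Trpc5 was 1.38-fold lower at 2 h and 1.6-fold higher at 6 h.

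Dmxl2, rabconnectin 3, a regulator of the vesicular proton pump, read 402.7, 284.3 and 314.4 with activin, against 417.2, 432.9 and 492 with vehicle. Its folds were 1.52 at 2 h and 1.56 at 6 h. Pomk, a kinase that acts on the sugar chain of dystroglycan, read 351.4, 184.4 and 191.6 with activin, against 216.9, 281 and 338.4 with vehicle, so it was 1.62-fold higher at 1 h and 1.52 and 1.77-fold lower later. A second Pomk probe set was lower at 6 h, by 1.59-fold, and higher at 2 h, by 1.18-fold. Vps33b, which takes part in vesicle traffic, read 277, 162.7 and 75 with activin, against 66.5, 297.4 and 342.4 with vehicle. The 1 h arrays of Vps33b were 4.17-fold apart with activin higher, and the later ones 1.83 and 4.57-fold apart with activin lower. Its relative Vps33a had folds of 1.37 at 2 h and 1.01 at 6 h. The small GTPase gene Rab9b was 1.49 and 1.6-fold lower at 2 h and 6 h, and Sprn, a relative of the prion protein gene, 1.59 and 1.79-fold lower.

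Genes of ubiquitin ligases, apoptosis and ADP-ribosylation made up 5 members. Klhl14, a BTB and kelch protein of a family that serves cullin 3 ligases, read 777.6, 391.2 and 293.2 with activin, against 788.7, 687.2 and 740.9 with vehicle. The vehicle arrays and the activin 1 h array stayed between 687.2 and 788.7, and its 2.53-fold at 6 h, after 1.76-fold at 2 h, was the largest at that time among the 35 brighter members. Klhl21, of the same family, was 1.49 and 1.61-fold lower. Trim8, a RING-type ligase, read 294, 231.5 and 208 with activin, against 299.6, 329.1 and 302.8 with vehicle, folds of 1.42 and 1.46, and its other probe set was lower at all 3 times by 1.15 to 1.18-fold. Parp14, an ADP-ribosyltransferase, was 1.47-fold lower at 2 h and 2.27-fold at 6 h, with 124.6 on the activin 6 h array.

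Bmf encodes a BH3-only protein that promotes apoptosis by binding Bcl2 proteins. Its brightest probe set read 381, 275.3 and 184.8 with activin, against 346.2, 408.4 and 326.4 with vehicle, folds of 1.48 at 2 h and 1.77 at 6 h. A second Bmf probe set ran the other way, with 374.7, 168 and 346.4 with activin, against 203.2, 40.1 and 38 with vehicle. The direction for Bmf at 2 h and 6 h thus differs between its probe sets. Names of both end in a suffix of the manufacturer for probes that can match several transcripts, as do those of the probe sets that chose Pomk, Pld1 and 2900026A02Rik. Bid, another BH3-only gene, was 1.49, 2.12 and 1.59-fold lower at 1, 2 and 6 h, with every activin signal under the brightness limit. The other measured BH3-only genes, Bad, Bbc3, Bcl2l11 and Hrk, had folds between 0.98 and 1.27 at 2 h and between 0.76 and 1.01 at 6 h.

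Noncoding RNAs and pseudogenes made up 7 members. Neat1, the long noncoding RNA that forms the core of nuclear paraspeckles, read 804, 537.6 and 612.7 with activin, against 834.7, 844.5 and 1149.7 with vehicle. It was 1.57-fold lower at 2 h and 1.88-fold at 6 h by its brightest probe set. Another Neat1 probe set read 355.4, 410.7 and 343.1 with activin, against 387.4, 359.8 and 398.8 with vehicle, 1.14-fold higher at 2 h and 1.16-fold lower at 6 h. Meg3, an imprinted long noncoding RNA that is silenced in many human gonadotrope-type pituitary tumours, read 357.5, 179.9 and 236.7 with activin, against 350.8, 332.3 and 345.5 with vehicle, or 1.85 and 1.46-fold lower. Of its 4 other probe sets, 1 was lower at 2 h only, by 1.69-fold, 1 was lower by any amount at 6 h only, 1 had 1.11-fold at 2 h and 0.914 at 6 h, and 1 was higher with activin at both times, by 1.44 and 1.32-fold. The member call for Meg3 therefore depends on which of its probe sets is read. Of the other nuclear long noncoding RNAs measured, Malat1 had folds of 1.02 at 2 h and 1.31 at 6 h. Rian had 0.87 and 0.88, and Mirg 1.08 and 0.58.

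Lockd, a noncoding RNA made beside the cell cycle inhibitor gene Cdkn1b, read 211.2, 200.6 and 221.7 with activin, against 217, 287.2 and 345.5 with vehicle. In Lockd the activin signals stayed level and the vehicle signals were higher later, with folds of 1.43 and 1.56. Ppp4r1l-ps, a transcribed pseudogene, had the same order, with 321.6, 334 and 306 with activin, against 271, 524.7 and 449.3 with vehicle. Its other probe set was 1.25-fold higher with activin at 2 h, at 372.5 against 297.7 with vehicle, and 1.47-fold lower at 6 h, at 272.5 with activin against 400.1 with vehicle. The clone-named 9230114K14Rik was 1.66 and 1.52-fold lower, Gm4814 1.88 and 1.72-fold, and D030018L15Rik 4.2 and 1.98-fold, the last with an activin 2 h signal of 41. At 1 h Gm4814 was 1.73-fold and D030018L15Rik 1.81-fold higher with activin.

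The 16 members that remain have other or little known roles, with median folds of 1.72 at 2 h and 1.6 at 6 h. Fbf1, a protein of the distal appendages that anchor the primary cilium, read 693.7, 590.9 and 441.9 with activin, against 636.4, 950.4 and 881.8 with vehicle. The vehicle signals were higher later and the activin signals lower, with folds of 1.61 and 2. AI593442 read 1647.3, 822.1 and 959.4 with activin, against 1921.3, 1416.9 and 1601.3 with vehicle, folds of 1.72 and 1.67, and its other probe set was 1.34 and 1.33-fold lower at these times but 1.61-fold higher at 1 h. 2900026A02Rik read 539.1, 426.3 and 274.3 with activin, against 609.5, 623.2 and 544.5 with vehicle, folds of 1.46 and 1.99. All 3 were among the 35 brighter members.

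Of the other 13, Plekhh3 was 1.76 and 1.4-fold lower at 2 h and 6 h, Wdsub1 1.83 and 1.44-fold, Glt28d2 1.52 and 1.53-fold and Gm11545 1.66 and 1.42-fold, and all 4 were among the brighter members. Ccdc14 was 2.31 and 1.53-fold lower, Ccdc166 1.55 and 2.01-fold, Crlf3 2.48 and 1.43-fold, Frmpd3 2.31 and 1.97-fold and Agbl3 1.42 and 1.43-fold. Letm2 had folds of 1.5 and 1.95, Rrnad1 1.77 and 1.66, Samd7 1.92 and 1.7 and Doxl1 1.72 and 1.44. These 9 had at least 1 signal under the brightness limit. Doxl1 read 275.1, 103 and 158.6 with activin, against 76.1, 177.1 and 228.7 with vehicle, so its 1 h arrays were 3.61-fold apart with activin higher. It was the single member whose later activin signals were not below both 1 h arrays and whose later vehicle signals were not above them.

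Probe sets that did not choose the members give a separate reading of 14 of them. These 14 had 18 other probe sets past the brightness limit, and the other 48 members had only the one. Of the 18, 1 was at least 1.4-fold lower at both 2 h and 6 h, where 1.07% of 8325 such probe sets of all genes were. By any amount, 7 of the 18 were lower at both times, against 28.0% of the 8325, 9 were lower at 1 of the times and 2 at neither. These other probe sets are dimmer by construction and were hybridised with the same RNA, so they share its errors.

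**Figure D5:**
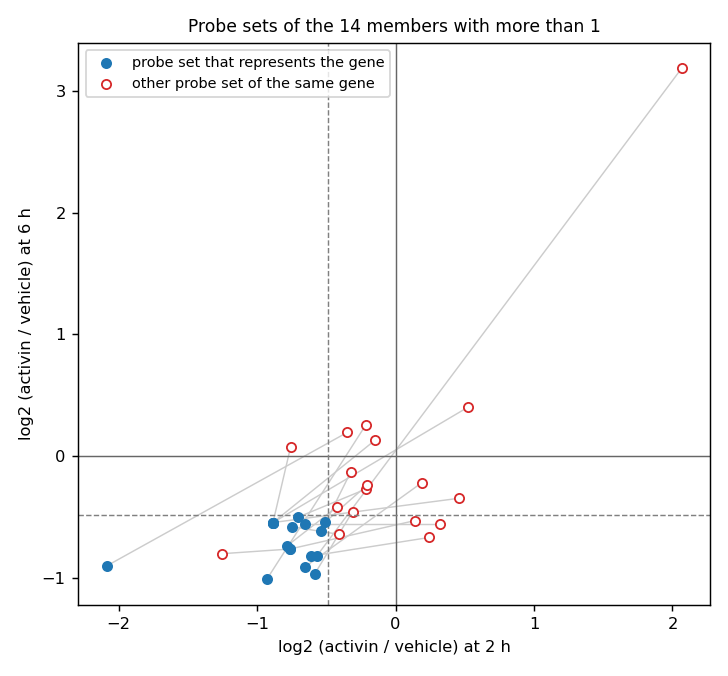
Log2 ratio of activin over vehicle at 2 h (horizontal) and 6 h (vertical) for the probe set that represents each of the 14 members (filled) and for their 18 other probe sets past the brightness limit (open), joined by gene. The filled points lie beyond 1.4-fold lower (dashed lines) by the rule; of the open points 1, of Id4, does, and the point far to the upper right is the second probe set of Bmf.

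In 30 families, chosen after the members' values were seen, 65 relatives passed the brightness limit. Of these, 5 were at least 1.4-fold lower at 2 h (4.65% of all genes were) and 5 at 6 h (5.41%). Trpc2 and Bid were lower by that much at both times, as were 0.904% of all genes. These shares of all genes include the members. A relative is a family gene that is not a member, so by definition none of the 65 could meet the whole rule. In the 28 lists of pathways, 6 lists held 1 member each. TGF-beta family signalling, with Id4, had 29 measured genes, of which 2 were at least 1.4-fold lower at 2 h and 4 at 6 h, and 4 were higher at each of these times. The median log2 ratio of that list was 0.08 at 2 h and 0.04 at 6 h. MAPK and growth factor signalling, with Irs1, had 1 of 23 lower at each of the 2 times, which was Irs1 itself. Ribosome biogenesis, with Polr1a, had 2 of 25 lower at 2 h and 2 at 6 h. Apoptosis, with Bmf, had 2 and 3 of 20, ubiquitin ligases, with Trim8, 2 and 3 of 36, and the channels, with Trpc1, 3 and 6 of 24. These lists were chosen with results of these data known, and 4.65% and 5.41% of all genes were lower by that much at 2 h and 6 h.

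The members lay on 17 chromosomes. The counts on chromosomes 6 and 11, 7 each, were the highest, from 550 and 960 measured genes. Garem1 and Klhl14, both on chromosome 18, had no protein-coding gene between them in the RefSeq annotation, and both were among the brighter members. Between Dusp16 and Lockd, on chromosome 6, lie 3 protein-coding genes, Crebl2, Gpr19 and Cdkn1b. Their folds at 2 h and 6 h were 1.04 and 0.91 for Crebl2, 1.17 and 1.38 for Gpr19, and 0.93 and 1.11 for Cdkn1b, so none reached the limit of 1.4 that both outer genes met. Letm2 and Pomk, on chromosome 8, are separated by 9 protein-coding genes, 8 of them measured, and Gm11545 and Dlx4, on chromosome 11, by 13, 3 of them measured. None of these 11 was at least 1.4-fold lower at both times.

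Several members sat close to a limit of the rule. At 2 h, Plin2 and Trim8 were just inside at 1.42-fold, and Gca and Trim36 just outside at 1.3999 and 1.3969. At 6 h, Stox2 and Plekhh3 were inside at 1.4012 and 1.402, and Pla1a and Dubr outside at 1.3915 and 1.389. At 1 h, Id4 and Wdsub1 were inside at 1.1949 and 1.187, and Ccdc51 and Lppos outside at 1.2155 and 1.216. In mean signal, Frmpd3 and Carns1 were inside at 158.6 and 158.9, and Cilp2 and Ndst3 outside at 154.8 and 151.7. With the stricter limits used in the authors' deposited tables, 1.5-fold and more than 100 signal units, 38 members were lower at 2 h (2.13% of all genes were), 34 at 6 h (2.88% of all genes) and 21 at both. These counts come from the signals used here. In the authors' deposited tables for 2 h and for 6 h, Id4 was the only member found. Whether these tables list every gene past their limits is not known here, so nothing is read from the absence of the other members.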

How the data were processed

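Expression was measured on 6 arrays of LβT2 cells, each a single treatment and time. The linear intensity of each probe set, as deposited, was used; it was made with GCOS 1.4 per the submitters' processing notes (settings not given in the sources used here). Values without the lowest and highest 2% had a mean of 500 on every array. A deposited workbook of the authors holds signed folds, used as a score with falls below 0, for genes past limits that its headers name.

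Of 45101 probe sets, 64 were controls, and the platform annotation named 1 gene for 34945, several for 932 and none for 9160. Symbols were updated to RefSeq (GRCm38.p6) for 34741 and kept for 204. Each of 18193 genes was read from its brightest probe set, and 11500 reached the brightness limit of the rule in mean signal. Ratios were taken on the signals as deposited, with no pseudocount. Precision is limited by the number of arrays. The design has 1 array per treatment and time and the rule used all 3 comparisons, so no test was run.

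The members, lists and alternatives were chosen with earlier results of these data known. Named were the 12 members with the largest mean ratio at 2 h and 6 h among those with every signal at or above the brightness limit, the 10 of highest mean signal, members with discordant probe sets, members of the lists, and the 2 nearest each limit on either side. Genes described for a known role, the role groups and the families were chosen after the values were seen. Promoters came from RefSeq; the table held none for 18 members. Python 3.11.15, pandas 2.3.3, numpy 2.4.6 and matplotlib 3.10.9 were used. Alternatives varied the brightness limit, normalization, pseudocount, floor, probe set, vehicle arrays and limits.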

Additional observations from a re-analysis of the deposited data

Results flagged for a closer look

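Outside the genes compared, a control for the 5′ end of 18S ribosomal RNA read 12201.8 with activin at 1 h, against 610.1 with vehicle, and the controls for its middle and 3′ end were also higher with activin. Among the members, 5 were at least 1.4-fold higher with activin at 1 h (3.8% of all genes were) and lower at 2 h and 6 h. They were Vps33b at 4.17-fold higher, Doxl1 at 3.61, D030018L15Rik at 1.81, Gm4814 at 1.73 and Pomk at 1.62. These differences between times were not tested. All 5 use the activin 1 h array, and in Vps33b and Doxl1 the vehicle 1 h signal was the lowest of the 6, at 66.5 and 76.1. Of the 5, only Pomk had every signal at or above the brightness limit.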

How the results depend on the processing

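The number of genes that met the rule, 62 as reported, depended most on the limits. It was 341 with no brightness limit, 15 with that limit at the 70th percentile (a mean signal of 432.5), 31 at 1.5-fold, 124 at 1.3-fold and 38 with a pseudocount of 48, of which 37 were members. With settings added after the data were seen, it was 96 with no condition at 1 h and 35 with every signal required to reach the brightness limit. It was 54 after quantile normalization (51 of them members), 49 after median centring (44), 50 with dim signals raised to the limit (49) and 60 with the median of probe sets (50). Against the mean of the 3 vehicle arrays 56 genes met it, and 29 of them were members. The median log2 ratio of the members at 1 h, −0.01 as reported, was 0.0 after quantile normalization and −0.07 after median centring. Of the 62 members, 53 were below every vehicle array at 2 h and 6 h, and 50 to 55 under the 5 alternatives. Across 6 settings of normalization, pseudocount, floor, probe set and vehicle arrays, 14 members were kept under all, among them Lrrn3, Klhl14, Tox3, Pld1, Ocln, Itpkb and Gfpt2, while Plin2, Kirrel, Map2k6, Stox2, Lockd and Frmpd3 were kept under 2 and Polr1a, Trim8, Carns1 and Agbl3 under 1. No paired analysis was possible because no result comes from a test and the labels give no replicate numbers; each ratio already sets the activin array against the vehicle array of its own time. For the 27 members with a signal under the brightness limit, the sizes rest on dim signals.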
